A study of Mus musculus with 10 samples.

Results

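tRNA-Lys-CTT and tRNA-Lys-TTT are the nuclear tRNAs that carry lysine, and the fragments of both were described here in mouse sperm. They were taken by name from the nuclear tRNA entries of each sample, and each was separated into reads from the 5′ end, reads from the 3′ end without the added CCA, reads with the CCA end, and the remaining reads, called internal. This gave 8 features for 2 members, out of 204 features for 51 nuclear tRNA anticodons and 1473 features of all small RNA classes. Mature sperm came from the cauda epididymis and vas deferens of F0 male C57BL/6J mice. The CD-F0 group (n = 5) received a control diet with 10% of kcal as fat and the HFD-F0 group (n = 5) a high-fat diet with 42%, both from 4 weeks of age. Whether each sample was 1 mouse or a pool is not given in the sources used here, so the tests measure the spread between these samples, which may be technical in part. Only a band of short RNA was cut from the gel, and whole tRNA and longer fragments are not covered by the values below.

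Lysine is encoded by AAA and AAG codons. The anticodon CTT reads AAG, and TTT reads AAA and, through its modified first base, also AAG. Mature tRNAs end in CCA, which is added by an enzyme after transcription and is not part of nuclear tRNA genes. Retroviruses and LTR retroelements use the 3′ part of a host tRNA, paired to their primer binding site, to start reverse transcription: tRNA-Lys-TTT serves HIV and, in the mouse, the mammary tumour virus and the MusD family, and tRNA-Phe-GAA serves the IAP family. Fragments that carry the CCA end of such tRNAs are known from cell experiments to interfere with this step. Fragments from the 5′ end of tRNAs are abundant in mature sperm, which receive part of them from the epididymis.

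RefSeq's annotation of the mouse assembly GRCm38.p6 lists 26 genes under the nuclear tRNA-Lys names n-TKctt and n-TKttt, each 73 bases long. The sperm reads were assigned to another tRNA reference, GtRNAdb. Its genes were not counted here and may be more, so these numbers describe the RefSeq names only. Of these, 24 have the anticodon CTT and lie on 12 chromosomes, and 2 have the anticodon TTT. Both of these listed TTT genes lie on chromosome 13, n-TKttt23 from 21907940 to 21908012 and n-TKttt22 from 21971788 to 21971860. Neither overlaps a GENCODE M21 gene. Of the CTT genes, 19 lie between genes and 5 in introns, namely n-TKctt7 in Cdh19 on chromosome 1, n-TKctt24 in Rinl on chromosome 7, n-TKctt4 in the lincRNA gene Gm47214 on chromosome 9, n-TKctt21 in the antisense gene Igf1os on chromosome 10 and n-TKctt10 in Trim7 on chromosome 11. No CTT gene overlapped an annotated exon. Reads were counted per anticodon and not per gene, so no value below belongs to 1 locus.

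The 10 libraries held 29558751 to 32178088 clean reads. Levels are given as RPM, the reads of a feature scaled to 1000000 clean reads and not divided by tRNA length, and a fold change compares HFD-F0 with CD-F0. HFD-F0 replicate 1 stood apart in several tRNA-Lys values, and CD-F0 replicate 1 in some, and these are named where they occur. The marker miRNAs of spermatids and sperm (8 of 8), epididymal epithelium (6 of 6), smooth muscle (6 of 6) and blood and immune cells (6 of 6) were above 0 in every sample. The summed sperm markers ran from 11757 to 14234 RPM in CD-F0 and from 8488 to 16788 RPM in HFD-F0. The epididymal sum was 3969 to 6756 RPM against 5520 to 9463 RPM, the smooth muscle sum 21352 to 29447 RPM against 15876 to 36525 RPM, and the blood sum 1557 to 2564 RPM against 1461 to 3117 RPM. By group mean, 6 of 6 epididymal, 5 of 8 sperm, 4 of 6 smooth muscle and 5 of 6 blood markers were higher in HFD-F0. The fold change of the sum was 1.25 for epididymal, 0.913 for sperm, 1.12 for smooth muscle and 1.10 for blood markers. In HFD-F0 replicate 1 the sperm, epididymal and smooth muscle sums were the highest of their group. Fewer sperm and less RNA per sperm cannot be told apart in these bulk samples, and the part of other cells in the tRNA-Lys values was not tested.

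By reads from this band of short RNA, the members were the 2 most abundant of the 51 nuclear tRNAs. Over the 10 samples tRNA-Lys-TTT had a mean of 27698 RPM and tRNA-Lys-CTT 26170 RPM, followed by the initiator tRNA-iMet-CAT at 16429 RPM and the elongator tRNA-Met-CAT at 15320 RPM. Together the lysine tRNAs gave 4.43% to 6.74% of the clean reads and 18.8% to 29.8% of all nuclear tRNA reads. Both ends of the latter range were HFD-F0 samples, replicate 4 and replicate 1. The mitochondrial tRNA-Lys-TTT, encoded in the mitochondrial genome, was far lower at 644 to 2500 RPM, and the nuclear tRNA-Lys total was 19.8 to 89.5 times as high within a sample.

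**Figure D1:**
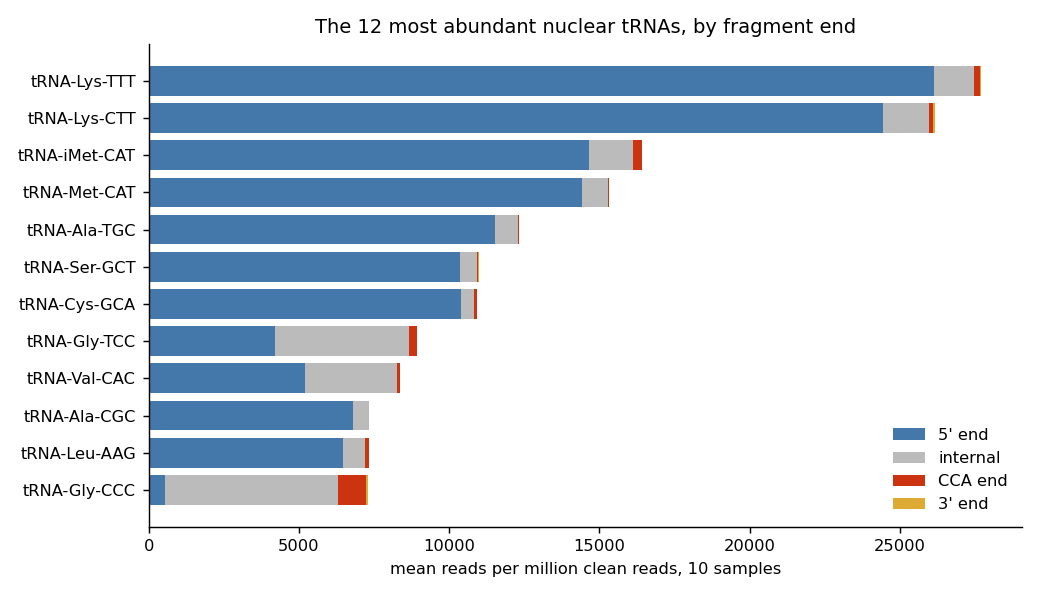
Horizontal bars give the mean RPM over 10 samples of the 12 nuclear tRNAs with the highest totals, divided into 5′ end, internal, CCA end and 3′ end reads. tRNA-Lys-TTT (27698 RPM) and tRNA-Lys-CTT (26170 RPM) head the order, and nearly all of each bar is 5′ end.

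Within the band of short RNA that was sequenced, the tRNA-Lys fragments were almost all 5′ fragments. Fragments of any end that were longer than the band are not part of these shares. The 5′ end gave 94.3% of tRNA-Lys-TTT and 93.4% of tRNA-Lys-CTT, and among the 51 nuclear tRNAs these shares ranked 3 and 7 from the highest. In the 34 other nuclear tRNAs with at least 1000 RPM the 5′ share had a median of 57.3% and ran from 1.76% to 95.1%. Internal reads made up 4.86% of TTT and 5.80% of CTT, against a median of 41.5% in those 34. The CCA end held 0.712% of TTT and 0.619% of CTT, against a median of 1.62%. The 3′ end without CCA held 0.102% and 0.187%, against a median of 0.133%. By level rather than share the CCA ends were less rare, since they ranked 6 (TTT) and 7 (CTT) of 51. Both members together gave 2.80% to 9.61% of all nuclear CCA end reads, and 23.0% to 38.6% of all nuclear 5′ end reads.

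The 5′ end of tRNA-Lys-CTT stood at 26707, 22178, 29291, 21300 and 22730 RPM in CD-F0 replicates 1 to 5. In HFD-F0 it stood at 31169, 19982, 23330, 21097 and 26634 RPM. HFD-F0 replicate 1 was the highest of all 10 and HFD-F0 replicate 2 the lowest, so the control range lay within that of the HFD-F0 group. The means were 24441 ± 3412 RPM (SD, n = 5) and 24442 ± 4538 RPM (SD, n = 5), and the log2 fold change was −0.11 (SE 0.14, adjusted p = 0.898, edgeR). This fit scales each library by TMM, a factor set by the bulk of features. Scaled to clean reads alone the HFD-F0 mean was the higher one by a margin far under the SD, so the sign of this small value depends on the scaling.

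The 5′ end of tRNA-Lys-TTT stood at 28379, 23774, 31628, 22801 and 24503 RPM in CD-F0 replicates 1 to 5. In HFD-F0 it stood at 33351, 21247, 25145, 22352 and 28080 RPM. The order of the 10 samples was the same as for CTT. The means were 26217 ± 3692 RPM (SD, n = 5) and 26035 ± 4873 RPM (SD, n = 5), and the log2 fold change was −0.12 (SE 0.14, adjusted p = 0.853, edgeR). The ratio of TTT to CTT at the 5′ end held between 1.05 and 1.08 in all 10 samples. None of the 10 values at either 5′ end was a whole number (within 0.005), since a read that fits several tRNAs equally is split between them, and the 5′ values of the members are therefore not independent of each other.

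The internal fragments varied least. tRNA-Lys-CTT ran from 1174 to 1561 RPM in CD-F0 (median 1506) and from 1350 to 1880 RPM in HFD-F0 (median 1529), with a log2 fold change of 0.04 (SE 0.15, adjusted p = 0.967, edgeR). The lowest value was CD-F0 replicate 1, below every other sample. tRNA-Lys-TTT ran from 1162 to 1579 RPM in CD-F0 (median 1326) and from 1204 to 1567 RPM in HFD-F0 (median 1283), with a log2 fold change of −0.05 (SE 0.14, adjusted p = 0.941, edgeR). The coefficient of variation over the 10 samples was 12.3% for CTT and 11.3% for TTT, which placed them 47 and 50 of 51 among internal features of nuclear tRNAs, counted from the most variable.

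**Figure D2:**
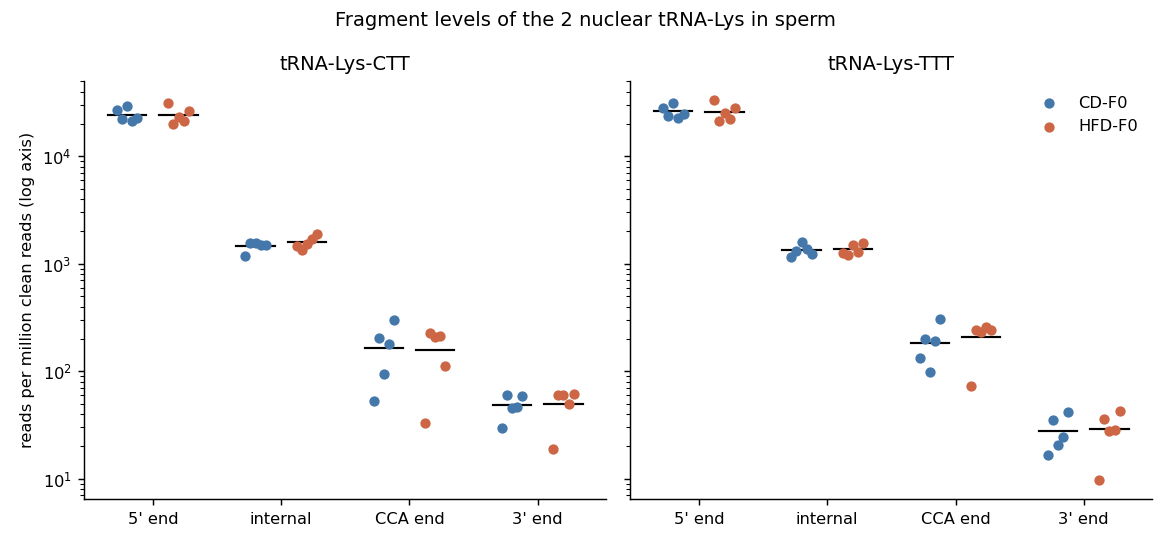
Each point is 1 sample (blue CD-F0, orange HFD-F0, n = 5 each, replicates 1 to 5 from left to right), with the RPM on a log axis and a black line at the group mean, for the 4 fragment kinds of each member. The groups overlap in all 8 panels of points, and HFD-F0 replicate 1 is the lowest sample at both CCA ends and both 3′ ends.

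The CCA and 3′ ends varied more between samples than the 5′ end and internal reads of both members. For tRNA-Lys-CTT the CCA end stood at 53.3, 202, 95.2, 179 and 297 RPM in CD-F0 replicates 1 to 5 and at 33.0, 226, 209, 211 and 113 RPM in HFD-F0. The lowest and the highest sample differed 9.02-fold, and each group held low and high samples. The lowest value rested on 1055 reads, with a 95% Wilson interval of 31.0 to 35.0 RPM that covers counting error only, and the spread between samples was far wider than that. The group means were 165 ± 95.4 RPM (SD, n = 5) and 159 ± 83.4 RPM (SD, n = 5). The log2 fold change was −0.10 (SE 0.53, adjusted p = 0.991, edgeR).

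For tRNA-Lys-TTT the CCA end stood at 132, 199, 98.6, 192 and 303 RPM in CD-F0 replicates 1 to 5. In HFD-F0 it stood at 72.3, 244, 230, 259 and 242 RPM. HFD-F0 replicates 2 to 5 were close together and replicate 1 lay far below them, while the controls were spread over the whole range. The means were 185 ± 78.3 RPM (SD, n = 5) and 209 ± 77.3 RPM (SD, n = 5), and the log2 fold change was 0.12 (SE 0.38, adjusted p = 0.948, edgeR). Without HFD-F0 replicate 1 and CD-F0 replicate 1 together it was 0.26, and leaving out 1 sample at a time it ran from −0.04 without CD-F0 replicate 3 to 0.35 without CD-F0 replicate 5. None of these values passed the test, and without HFD-F0 replicate 1 alone it was 0.32. The coefficient of variation over all samples was 52.2% for the CTT end and 37.8% for the TTT end, ranks 3 and 13 of 49 CCA ends of nuclear tRNAs, whose median without tRNA-Lys was 26.5%.

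Unlike the 5′ ends, the CCA ends did not keep 1 ratio. TTT was 2.48 times CTT in CD-F0 replicate 1, 2.19 times in HFD-F0 replicate 1 and 2.15 times in HFD-F0 replicate 5. In the other 7 samples the ratio lay between 0.984 and 1.22. The 3 samples with a high ratio had the lowest CTT levels of the 10 samples apart from CD-F0 replicate 3, whose ratio was 1.04. They came from both diets. At the CCA end and the 3′ end all 10 TTT values were whole numbers, while 0 of 10 CTT values were whole at the CCA end and 2 of 10 at the 3′ end.

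The 3′ ends without CCA were the rarest. tRNA-Lys-CTT stood at 29.8, 60.0, 45.7, 46.3 and 58.4 RPM in CD-F0 and at 18.9, 59.7, 59.7, 49.9 and 61.6 RPM in HFD-F0, and the log2 fold change was 0.01 (SE 0.33, adjusted p = 0.991, edgeR). tRNA-Lys-TTT stood at 16.6, 35.4, 20.7, 24.2 and 41.5 RPM in CD-F0 and at 9.75, 36.3, 27.7, 28.3 and 42.7 RPM in HFD-F0, and the log2 fold change was 0.02 (SE 0.39, adjusted p = 0.991, edgeR). HFD-F0 replicate 1 was the lowest sample for both, followed by CD-F0 replicate 1. The lowest TTT value rested on 312 reads, which gives a 95% Wilson interval of 8.73 to 10.9 RPM. At this end CTT exceeded TTT, with a ratio of TTT to CTT between 0.452 and 0.711.

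Most samples with much 5′ end had little CCA end. HFD-F0 replicate 1, CD-F0 replicate 3, CD-F0 replicate 1 and HFD-F0 replicate 5 had the 4 highest 5′ levels of tRNA-Lys-CTT and the 4 lowest CCA levels. For tRNA-Lys-TTT the samples with the 3 lowest CCA levels, HFD-F0 replicate 1, CD-F0 replicate 3 and CD-F0 replicate 1, had the 3 highest 5′ levels. HFD-F0 replicate 5 came next at the TTT 5′ end with 28080 RPM, but its CCA end was not low at 242 RPM. Each group contributed to the low CCA levels. Over the nuclear tRNAs other than tRNA-Lys the CCA end held 1.99% to 3.02% of the reads of a sample. CD-F0 replicate 3 (1.99%), CD-F0 replicate 1 (2.16%) and HFD-F0 replicate 1 (2.30%) were again lowest, but CD-F0 replicate 4 was close to them at 2.31%. The sum of the CCA ends of the other nuclear tRNAs ran from 3661 RPM in HFD-F0 replicate 1 to 5974 RPM in HFD-F0 replicate 3. The part of the libraries in the tRNA-Lys pattern was not tested.

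**Figure D3:**
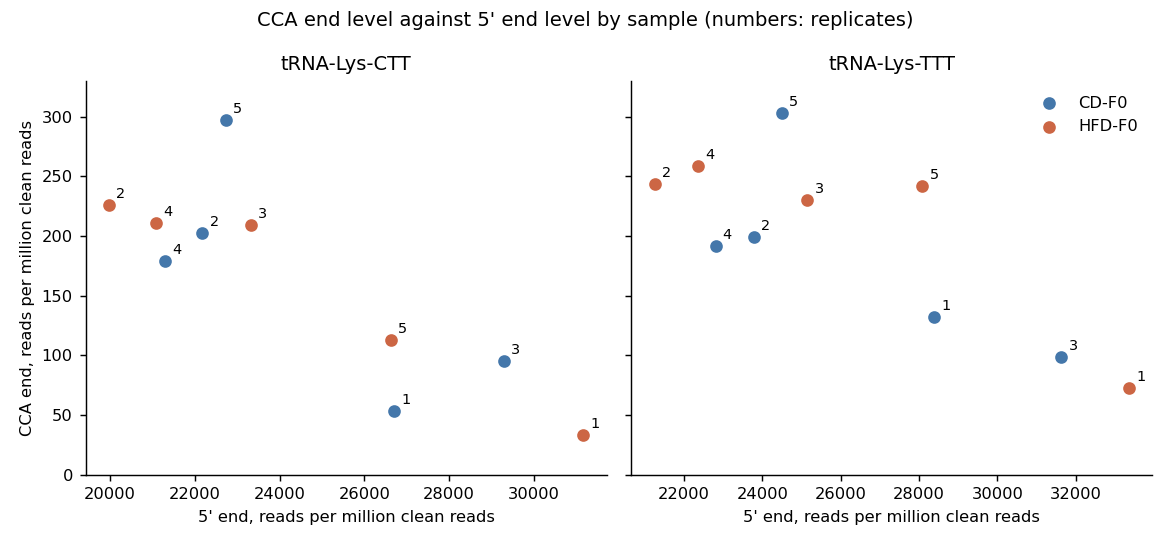
Each point is 1 sample, numbered by replicate, with the 5′ end level in RPM on the horizontal axis and the CCA end level in RPM on the vertical axis (blue CD-F0, orange HFD-F0). In both panels HFD-F0 replicate 1 lies lowest and farthest to the right (33.0 RPM for CTT and 72.3 RPM for TTT at the CCA end), and CD-F0 replicate 5 lies highest (297 and 303 RPM).

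The diet contrast asked whether paternal high-fat feeding changed sperm tRNA-Lys fragments, and no change passed the test. All 8 features passed the filter on low counts, and 0 of 8 met the study's thresholds, an unadjusted p of at most 0.05 and an absolute log2 fold change of at least 1 by edgeR. The study applied these thresholds to individual tsRNAs. Each feature here sums all reads of 1 fragment kind of an anticodon, so changes of individual fragments within a sum were not tested. Over all 814 features tested, 30 met them, which is 3.69%. At an unadjusted p of at most 0.05 alone, 83 of the 814 features passed (10.2%) but 0 of the 8, whose lowest p was 0.400, and DESeq2 also called 0 of 8. With an adjusted p under 0.05, 1 of the 814 passed (0.123%) and 0 of the 8. The median log2 fold change of the 8 was −0.02, beside −0.01 over all features, and the median absolute value was 0.08, beside 0.20 over all features.

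How large a change could have been missed differed by end. The 95% intervals of the log2 fold change from the edgeR fit ran from −0.41 to 0.19 for the CTT 5′ end and from −0.42 to 0.18 for the TTT 5′ end. For the internal reads they ran from −0.28 to 0.35 (CTT) and from −0.36 to 0.26 (TTT). These 4 intervals lie within the threshold of 1 in each direction. The CTT CCA end had an interval from −1.26 to 1.06, which passes that threshold in each direction. The TTT CCA end had −0.71 to 0.96, the CTT 3′ end −0.71 to 0.73 and the TTT 3′ end −0.82 to 0.87.

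**Figure D4:**
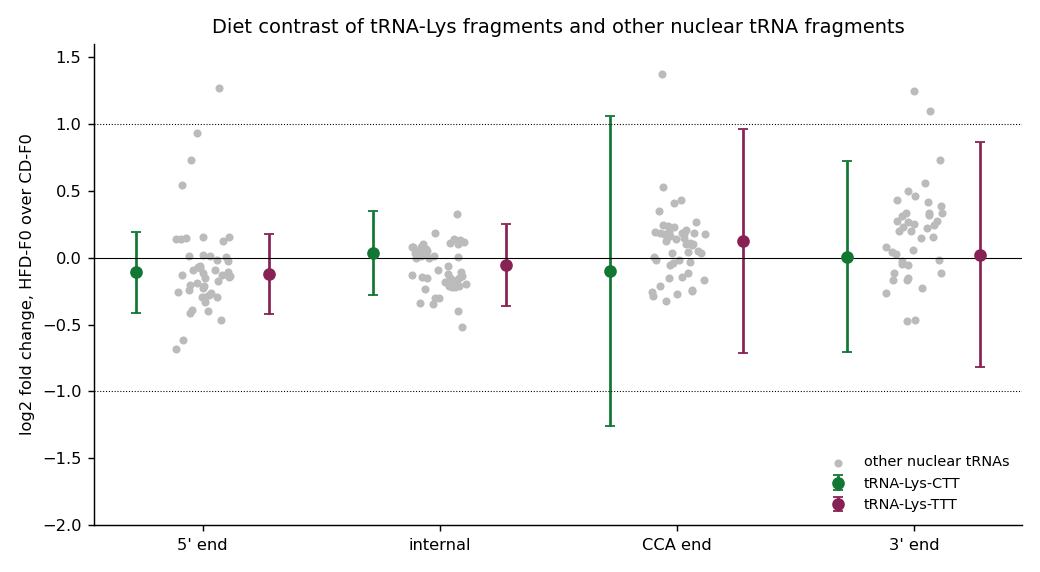
Coloured points give the log2 fold change of HFD-F0 over CD-F0 for each fragment kind of tRNA-Lys-CTT (green) and tRNA-Lys-TTT (purple), with bars for the 95% interval of the edgeR fit, and grey points the other nuclear tRNAs tested. Dotted lines mark the threshold of 1 in each direction; the 8 tRNA-Lys points lie between −0.12 and 0.12, and their bars are wider at the CCA and 3′ ends than at the 5′ end and internal reads.

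Levels and shares per member did not differ by more than the spread between samples. The total of tRNA-Lys-CTT was 26109 ± 3295 RPM (SD, n = 5) in CD-F0 and 26231 ± 4481 RPM (SD, n = 5) in HFD-F0 (exact permutation test, two-sided, p = 0.960). That of tRNA-Lys-TTT was 27761 ± 3703 RPM (SD, n = 5) in CD-F0 and 27635 ± 4832 RPM in HFD-F0 (SD, n = 5), with an exact permutation p of 0.952. The CCA end took 0.665% ± 0.416 against 0.658% ± 0.397 of tRNA-Lys-CTT (SD, n = 5, exact permutation p = 0.952). It took 0.695% ± 0.338 against 0.805% ± 0.356 of tRNA-Lys-TTT (SD, n = 5, exact permutation p = 0.659). The 5′ end took 93.5% ± 1.44 against 93.0% ± 1.42 of CTT and 94.4% ± 0.855 against 94.1% ± 1.17 of TTT (SD, n = 5, exact permutation p = 0.667 for each). The CTT share of both members was 48.5% ± 0.182 in CD-F0 and 48.7% ± 0.312 in HFD-F0 (SD, n = 5, exact permutation p = 0.190). The groups overlapped in all 7 values, the adjusted p was 0.960 for each over the family of 7 permutation tests, and 0.00794 is the smallest p that 5 against 5 samples allow.

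Other nuclear tRNAs give the setting of these values. For the 5′ ends, 33 of 47 others tested were lower in HFD-F0 by their fitted value, with a median log2 fold change of −0.13, close to the −0.11 and −0.12 of tRNA-Lys, and 0 of 47 met the thresholds. For the CCA ends the median of 47 others was 0.10 and 1 met the thresholds, tRNA-Glu-CTC, at 3.09 and 8.41 RPM in CD-F0 and HFD-F0. For the 3′ ends the median of 42 was 0.21, and 2 met them, tRNA-Ala-CGC and tRNA-Ala-TGC, both below 2 RPM. For internal reads the median of 49 was −0.09 and 0 met them.

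The CCA ends of some other tRNAs that prime mouse retroviruses or retroelements were looked at as a list of 10, which may not be complete (tRNA-Phe-GAA, 3 proline, 1 glycine and 5 leucine tRNAs). All 10 passed the low-count filter and 0 of 10 met the thresholds in either direction, beside 3.69% of all 814 features. Their log2 fold changes ran from 0.10 to 0.41 with a median of 0.19, beside −0.01 over all 814 features. The 47 CCA ends other than tRNA-Lys, which include these 10, had a median of 0.10, and 31 of them were higher in HFD-F0. The 3 proline values were 0.19 each, and tRNAs of 1 amino acid may hold split reads in common, so the 10 are not independent. The 3 with the highest levels were tRNA-Gly-GCC, tRNA-Leu-AAG and tRNA-Pro-AGG. tRNA-Gly-GCC had 826 ± 68.0 RPM in CD-F0 and 940 ± 127 RPM in HFD-F0 (SD, n = 5), above either tRNA-Lys CCA end. tRNA-Leu-AAG had 110 ± 18.9 RPM and 124 ± 31.5 RPM (SD, n = 5), and tRNA-Pro-AGG had 93.2 ± 21.9 RPM and 111 ± 46.1 RPM (SD, n = 5). The CCA end of tRNA-Pro-AGG spread 4.06-fold over the 10 samples, close to the 4.19-fold of tRNA-Lys-TTT, and that of tRNA-Gly-GCC 1.52-fold.

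The CCA end reads of tRNA-Lys nearly all matched the genome. Only 0.345% of the CTT and 1.72% of the TTT CCA end reads, pooled over the 10 samples, lacked a genome match, and per sample the TTT share ran from 1.17% to 2.14%. Among the 49 nuclear tRNAs with a mean of at least 10 CCA end reads the median was 64.3% and 32 had more than 50% of these reads without a match. The tRNA-Lys shares ranked 3 and 4 from the lowest, after tRNA-Phe-GAA and tRNA-Ser-GGA, for which 0 reads lacked a match. Of the primer list, tRNA-Gly-GCC had 11.3%, the proline tRNAs had 57.8% to 59.3% and the leucine tRNAs 14.0% to 82.6%. Reads were matched with 1 mismatch allowed, and where in the genome they matched was not analysed here. These shares were looked at after the values were seen and no test was made.

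**Figure D5:**
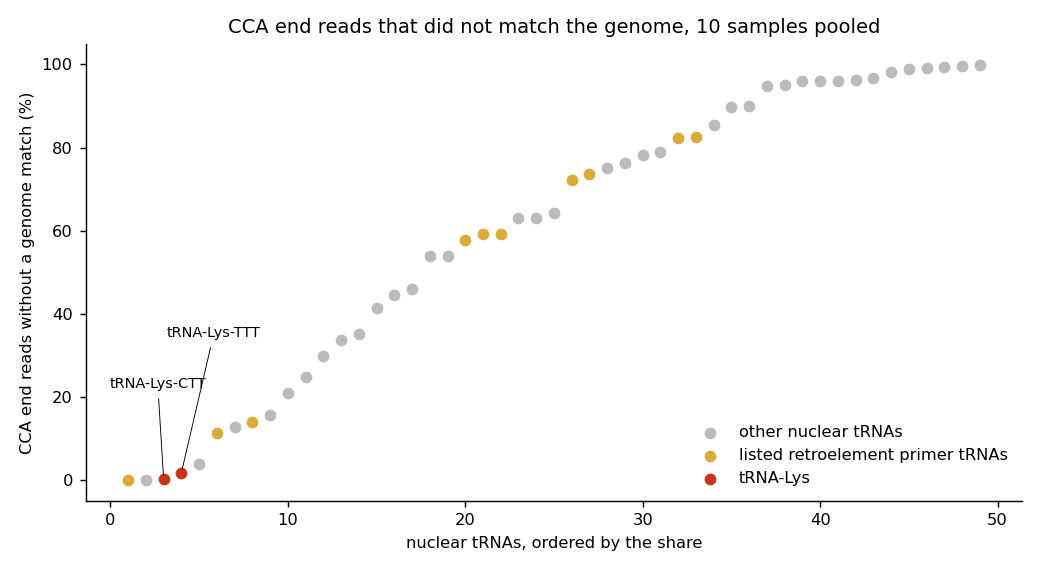
Each point is 1 of the 49 nuclear tRNAs with at least 10 CCA end reads on average, ordered along the horizontal axis, and the vertical axis gives the percent of its CCA end reads that did not match the genome, pooled over 10 samples. The red tRNA-Lys points (0.345% and 1.72%) lie at the low end, and the 10 yellow primer tRNAs are spread from 0% to 82.6%.

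The features whose profile over the 10 samples was most like the 5′ ends of tRNA-Lys were the same for both members. Apart from the other member (Pearson r = 0.999 on log2(RPM + 1)), tRNA-Gln-CTG internal reads came first with r = 0.955 to CTT and 0.951 to TTT, and tRNA-Gln-TTG internal reads second with 0.953 and 0.948. They ran from 661 to 1141 RPM and from 251 to 377 RPM. The microRNA mmu-mir-5126 came next with r = 0.806 and 0.812 at 0.563 to 1.85 RPM. These are the highest of 806 features compared, and all points share libraries and depth.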

How the data were processed

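The authors cut short RNA from a gel, ligated adapters with unique molecular identifiers, sequenced on the DNBSEQ platform and assigned clean reads with SPORTS and Bowtie (1 mismatch, mm10 per the labels). Whether identifiers were collapsed is not given in the sources used here. The deposited values are estimated counts of reads per RNA sub-class without normalization, fractional where a read fits several sub-classes. Here genome-matched and unmatched reads were added and internal reads taken as a member's total minus its 3 ends. Rounded counts of 1473 features were filtered with filterByExpr (814 left), scaled by TMM and tested with edgeR 4.0.16 (quasi-likelihood test, Benjamini-Hochberg) in R 4.3.3. On simulated data for this contrast with log2 changes of 2, 194 of 197 changed features were recovered and 8 of 600 unchanged ones called. These changes lie above the threshold of 1, and the recovery of smaller ones was not measured. Levels and shares were compared by exact permutation over 252 splits, using Python 3.11.15. DESeq2 1.42.0, other scalings and filters, genome-matched reads, a replicate block and left-out replicates were alternatives. The 10 libraries held 29558751 to 32178088 clean reads. The Wilson intervals of RPM cover counting error only, while the intervals of the log2 fold changes come from the edgeR fit and include the spread between samples. No pair of libraries agreed within sampling noise (chi-square per degree of freedom of 514 or more for 45 pairs). Members and lists were chosen with earlier results of these data known. Named features were the 8 member features, the 3 most correlated with each member's highest end, and from the primer list the 3 highest CCA ends and any past the thresholds. No tRNA sequence is printed.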

Additional observations from a re-analysis of the deposited data

Results flagged for a closer look

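Within groups of 5 samples, 36 sets of tRNA-Lys values were examined for a separated sample. The cut was a gap to the rest of more than 0.710 of the group's whole range. Chance gives this in about 1 group in 20. The sets share samples and reads, so that rate cannot be set against the number found. Of the 36 sets, 5 had such a sample. HFD-F0 replicate 1 was the sample in 3 of them. Its tRNA-Lys-CTT 3′ end stood at 18.9 RPM, with the next lowest HFD-F0 sample at 49.9 RPM. Its tRNA-Lys-TTT CCA end stood at 72.3 RPM, with the next lowest at 230 RPM. Its 5′ share of tRNA-Lys-TTT was 96.1%, with the next highest at 93.8%. CD-F0 replicate 1 was the sample in the other 2. Its tRNA-Lys-CTT internal reads stood at 1174 RPM, with the next lowest control at 1485 RPM, and its ratio of TTT to CTT at the CCA end was 2.48, with the next highest control at 1.07. In this library 36.9% of the clean reads were rRNA, the highest of the 10 libraries, whose lowest was 24.3%. The part of the libraries in these values was not tested.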

How the results depend on the processing

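All 8 tRNA-Lys features stayed outside the thresholds under each of the 18 alternatives of the fit, the lowest unadjusted p among them being 0.209 (edgeR and DESeq2). The signs of the small differences were less stable. Scaling to clean reads without TMM gave log2 fold changes of 8.17e-05 for the CTT 5′ end and 0.0323 for TTT internal reads, and moved the median of all features from −0.01 to 0.09. The CTT 3′ end turned to −0.00747 with at least 10 counts in every sample and to −0.00756 with genome-matched reads only, and with tRNA features only to −0.0979, where TTT 3′ was −0.0840 and CTT internal −0.0428.

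In the fit with a replicate block the CTT 3′ end was −0.11 and the TTT 3′ end −0.0939, and 0 of 8 features were called. For levels and shares the paired differences have the same mean as the unpaired comparison by construction, so only their p can differ. By sign flips of these differences the smallest possible p is 0.0625, and the permutation p was 0.0625 for the CTT share of both members. Same-numbered samples deviated together in 2 of 5 pairs, replicates 1 (r = 0.44) and 3 (r = 0.33), which also correlated best with their own number, and the lowest of the 5 correlations over 814 features was −0.22. No label says that same-numbered samples share more than a number, so the main comparison used no block. These mixed correlations do not decide whether they share more.

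The CTT total differed by 122 RPM between diets, by −145 when scaled to annotated reads and by −0.000797 as log2 RPM, and the TTT total by −126 RPM but by 838 when scaled to nuclear tRNA reads. Leaving out 1 sample at a time, differences ran from −1491 to 1339 RPM for the CTT total and from −1889 to 1265 RPM for the TTT total. They ran from −0.126 to 0.132 percentage points for the CTT CCA share, from 0.0105 (without CD-F0 replicate 3) to 0.259 (without HFD-F0 replicate 1) for the TTT CCA share, from 0.139 (without HFD-F0 replicate 4) to 0.330 (without HFD-F0 replicate 3) for the CTT share of both members, from −1.07 to 0.0262 for the CTT 5′ share and from −0.818 to 0.00753 for the TTT 5′ share. The log2 fold changes ran from −0.10 to 0.20 (CTT 3′), −0.17 to 0.22 (TTT 3′), −0.30 to 0.21 (CTT CCA), −0.0442 to 0.350 (TTT CCA) and −0.0558 to 0.0709 (CTT internal). Without CD-F0 replicate 1 and HFD-F0 replicate 1 together, chosen after seeing the data, the CTT total differed by −1027 RPM, the TTT total by −1407 RPM, the CTT CCA share by 0.0133 percentage points and the TTT 5′ share by −0.512 (exact permutation p = 0.0571). This was the smallest p among the 97 alternatives of levels and shares, and the difference over all samples was −0.298 (exact permutation p = 0.667). The cause of these changes was not tested. Fragment lengths were not available. The 5′ and internal values of both members hold split reads, which may limit the separation of CTT from TTT there.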

Other observations

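The opposite order of 5′ and CCA end levels over the 10 samples was seen in the values first and then measured, in a family of 4 relations (5′ end against CCA end and against 3′ end, for each member). Because the relation was picked from these same samples, the p-values below cannot test it and are given as a description. The values of both members come from the same libraries, and their 5′ values hold split reads, so CTT and TTT are not independent repeats of it. For tRNA-Lys-CTT the 5′ and CCA levels gave Pearson r = −0.842 (permutation test, p = 0.00254, adjusted p = 0.0102) and Spearman rho = −0.794 (permutation p = 0.00910, adjusted p = 0.0364). Without the 2 samples farthest from the median 5′ level, CD-F0 replicate 3 and HFD-F0 replicate 1, r was −0.736. For tRNA-Lys-TTT r was −0.788 (permutation test, p = 0.00825, adjusted p = 0.0165) and rho −0.697 (permutation p = 0.0312, adjusted p = 0.0625). Without the same 2 samples r was −0.381, so this relation rests on them. The 5′ and 3′ end levels gave r = −0.667 for CTT (permutation p = 0.0333, adjusted p = 0.0444) and −0.598 for TTT (permutation p = 0.0703, adjusted p = 0.0703), with rho of −0.442 (permutation p = 0.204, adjusted p = 0.204) and −0.539 (permutation p = 0.114, adjusted p = 0.153). Without those samples r was −0.330 and −0.120, so both relations rest on them. Within the groups of 5, r between 5′ and CCA end was −0.726 in CD-F0 and −0.978 in HFD-F0 for CTT, and −0.728 and −0.863 for TTT. Over the 49 nuclear tRNAs with both ends tested, the median rho between 5′ and CCA end was 0.248, 10 were negative, and tRNA-Lys-CTT and tRNA-Lys-TTT ranked 1 and 3 from the lowest. These tRNAs share libraries and depth, so this order is a description, and no cause was tested.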
